A study of Mus musculus with 8 samples.

Results

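Integrins and other surface receptors that bind matrix and neighbouring cells were followed at the RNA level in mouse pro-B cell lines. The 9 genes were taken by name, with earlier results of these data known. They are the integrin subunit genes Itga4, Itga5, Itga6, Itgal, Itgb1, Itgb2 and Itgb7, and the receptor genes Cd44 and Cd97, out of 23929 gene symbols listed per library. Of the 9, 6 reached 1 FPKM in 2 or more libraries of the 8 and were tested, and Itgal, Itgb7 and Cd44 did not reach that level and were not. FPKM scales fragment numbers by transcript length and by the mapped reads of the library, so levels of different genes can be set side by side.

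The lines were all 129SV pro-B cell lines from bone marrow, grown untreated, with 2 libraries each. The lines titled CBE-/- (1) and CBE-/- (2) both carry the genotype IGCR1-/-, which is the loss of CTCF-binding elements from IGCR1, a control region of the immunoglobulin heavy chain (IgH) locus. The line titled Eµ-/- lacks the intronic enhancer Eµ of that locus, and the line titled WT is labelled wild type. The Eµ-/- and WT genotypes have 1 line each, so a difference between deletions and a difference between lines cannot be told apart. Whether both libraries of a line are separate cultures is not in the labels, and p-values here measure the spread between libraries alone, possibly a technical one.

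Integrins are pairs of an α and a β chain that span the membrane. The β1 chain (Itgb1) pairs with α4 (Itga4) to bind VCAM-1 and fibronectin, with α5 (Itga5) to bind fibronectin, and with α6 (Itga6) to bind laminin. The β7 chain (Itgb7) also takes α4 and binds MAdCAM-1, and the leukocyte chain β2 (Itgb2) takes αL (Itgal) to bind ICAM-1. CD44 binds the matrix sugar hyaluronan, and CD97 is an adhesion G protein-coupled receptor that binds CD55. In bone marrow, α4β1 on B cell precursors holds them to VCAM-1 on stromal cells.

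The libraries held 9789 to 10024 symbols at 1 FPKM or more, and the reads implied by the deposited intervals came to 30.7 to 49.3 M per library. All 9 of 9 pro-B marker genes were at 1 FPKM or more in every library, with none below 36.9 FPKM in any. Of 5 T cell markers in the files, Cd3e, Cd4 and Cd8a were listed at 0 throughout and the summed level reached 0.134 FPKM at most. Across genes, r was 0.978 to 0.992 within lines and 0.926 to 0.964 between them.

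**Figure D1:**
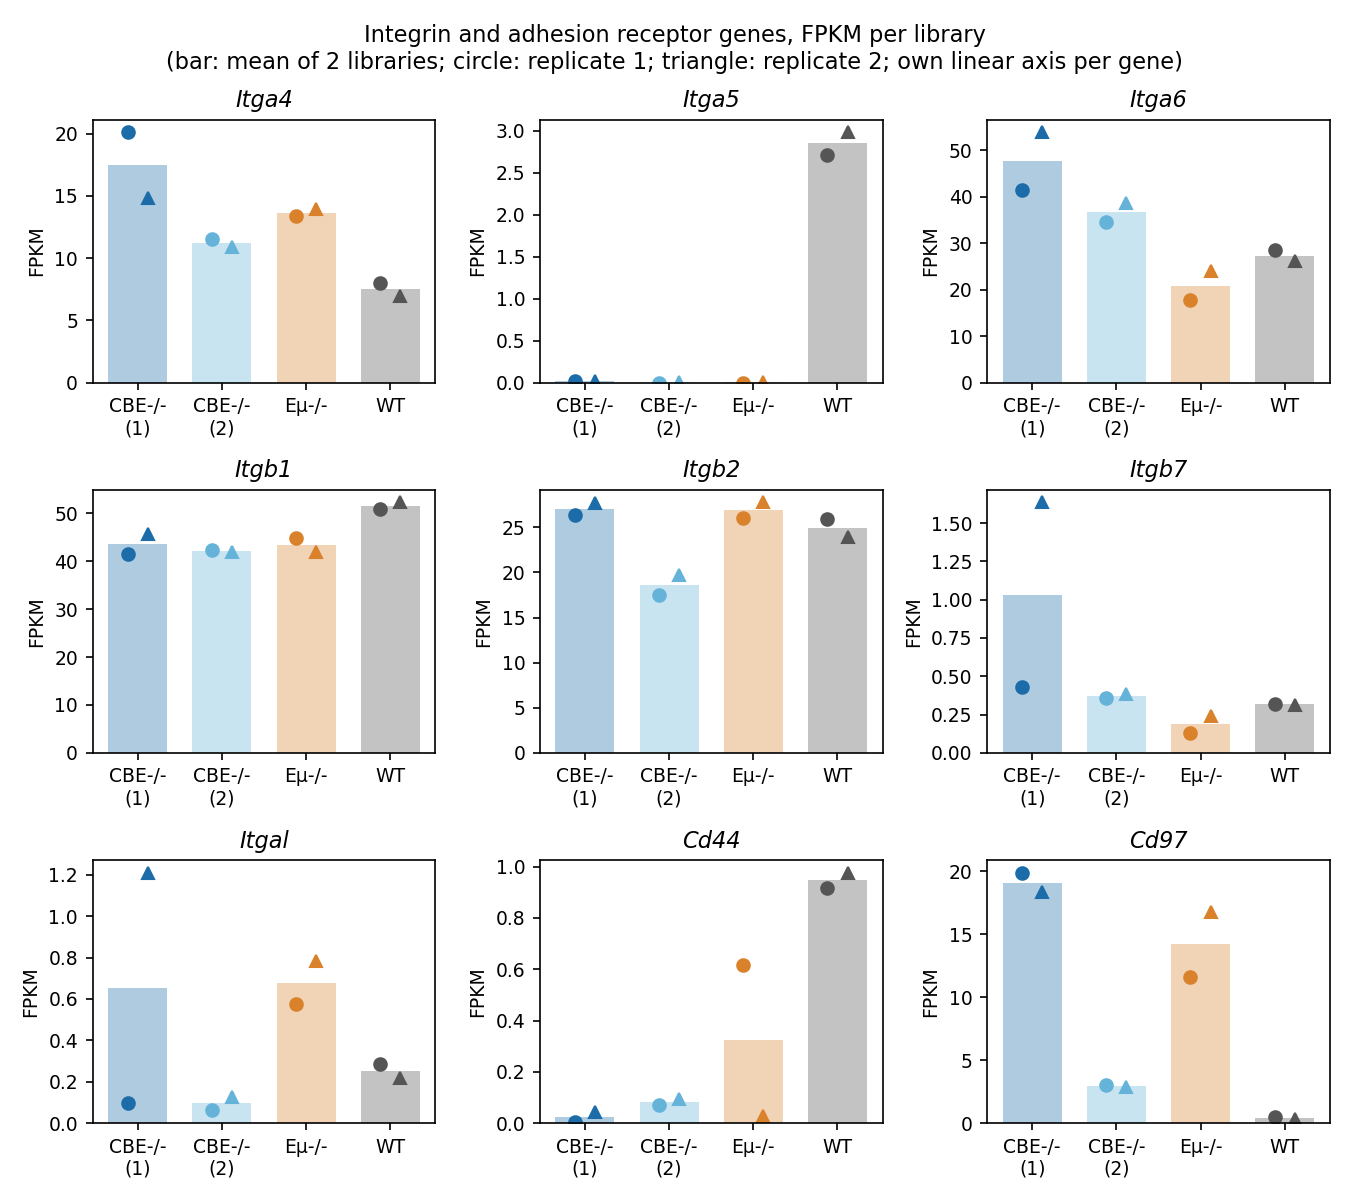
FPKM of each of the 9 genes in each of the 8 libraries, by line, on a linear axis of its own for each gene. Bars are means of 2 libraries, circles replicate 1 and triangles replicate 2. Itga5 stands near 0 in all 6 mutant libraries, and Cd97 is higher in all 6 of them than in both WT libraries.

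Among the tested genes, by limma, Cd97 rose and Itga5 fell in all 3 mutant lines against WT, Itga4 rose in CBE-/- (1) and Eµ-/-, Itga6 rose in CBE-/- (1), and Itgb2 fell in CBE-/- (2). In CBE-/- (1) against WT, 3 of the 6 rose and 1 fell, where 10.9% of all 10479 genes tested rose and 8.54% fell. For CBE-/- (2) against WT the counts were 1 and 2, where 10.5% of all genes rose and 8.19% fell. For Eµ-/- against WT they were 2 and 1, where 11.3% rose and 10.4% fell. In CBE-/- (2) against CBE-/- (1), 0 rose and 2 fell, where 5.17% of all genes rose and 5.03% fell. Of the 6 differences there, 3 had an unadjusted p under 0.05, as did 23.3% of all genes in either direction. In Eµ-/- 0 rose and 1 fell against CBE-/- (1), where 4.01% of all genes rose and 6.02% fell. In that comparison 2 of the 6 differences had an unadjusted p under 0.05, as did 22.6% of all genes in either direction. Against CBE-/- (2), 2 rose and 1 fell in Eµ-/-, where 5.62% of all genes rose and 7.62% fell. The member counts are a description, since Itga5 passed the filter only through WT and Cd97 only through the mutant lines. The 3 comparisons with WT share its libraries.

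These calls come from limma on log2(FPKM + 1) with Benjamini-Hochberg adjustment over all genes tested, and the shares of genes called move with single libraries. In CBE-/- (1) against WT, 2033 genes were called, 1034 without WT replicate 1 and 903 without WT replicate 2. In CBE-/- (2) against WT, 1960 were called, 1037 and 975 without WT replicate 1 or 2, and 956 and 950 without CBE-/- (2) replicate 1 or 2. There 1102 genes rose and 858 fell, whereas after quantile normalization 1014 rose and 1198 fell. That scaling also turned the balance in CBE-/- (1) against WT, with 1023 higher and 1148 lower in place of 1138 and 895, and in Eµ-/- against WT, with 1143 and 1279 in place of 1189 and 1095. In Eµ-/- against WT, 2284 were called, 999 and 890 without WT replicate 1 or 2, and 1513 and 1512 without CBE-/- (2) replicate 1 or 2. The comparisons between mutant lines, with 1051 to 1387 genes called, also moved with single libraries, and their values are given with the other alternatives.

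**Figure D2:**
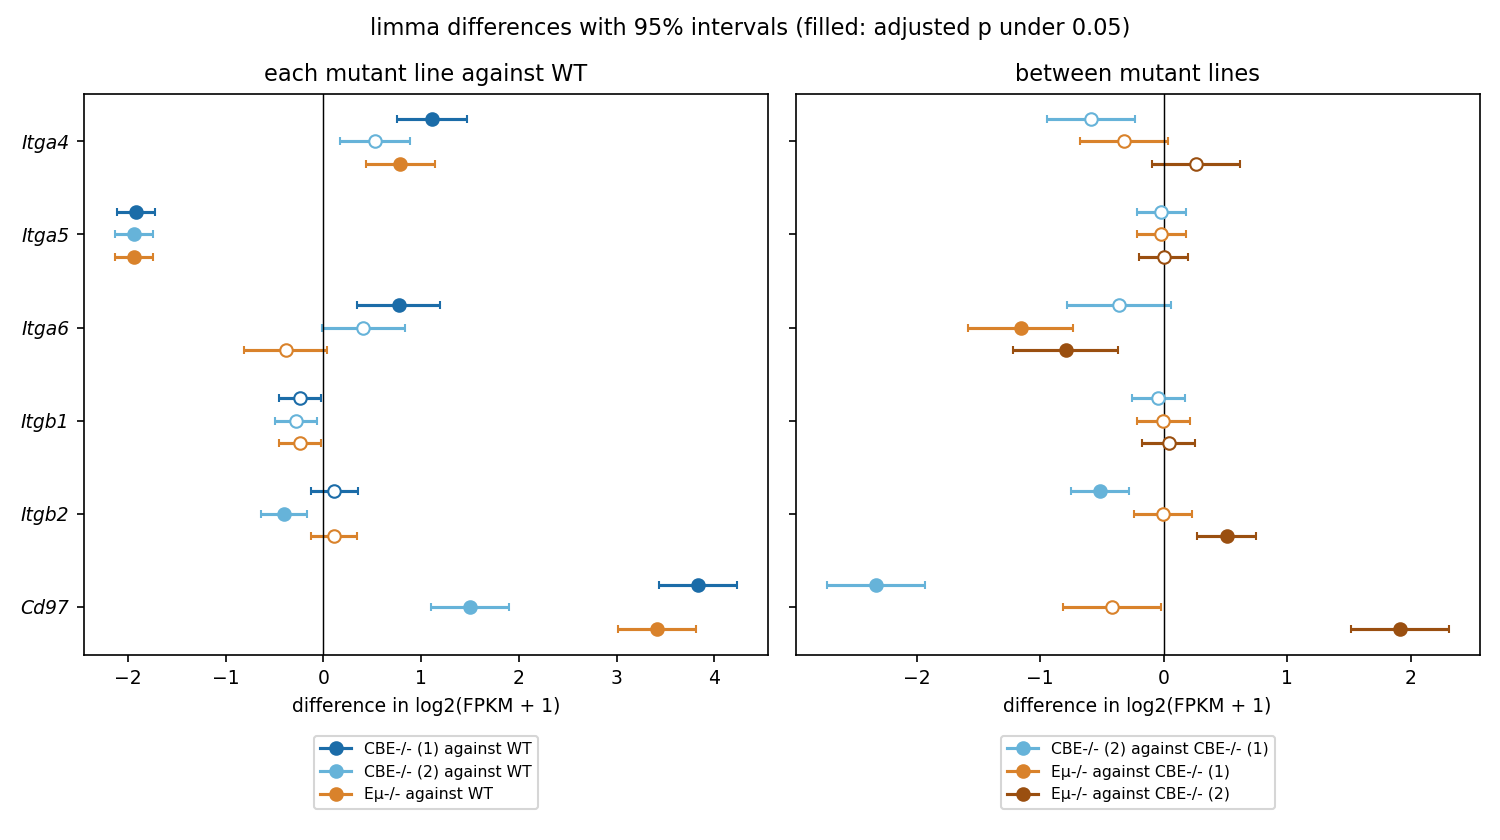
Differences in log2(FPKM + 1) for the 6 tested genes with 95% intervals, each mutant line against WT on the left and mutant lines against each other on the right. Filled points passed an adjusted p of 0.05. Cd97 passed in 5 of the 6 comparisons. Itga5, near 0 in every mutant library, passed only in the 3 with WT.

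Itga5 (α5, mm9 chr15:103174718-103197179), the fibronectin-binding partner of β1, was near 0 in every mutant library. Its levels were 0.0127 and 0.0226 FPKM in CBE-/- (1), 0 and 0.00786 in CBE-/- (2), 0 and 0.00849 in Eµ-/- and 2.71 and 2.98 in WT. Both WT libraries lie above all 6 others by 2 orders of magnitude. The CBE-/- (1) values rested on 4 and 5 implied reads and those of each other mutant line on 0 in replicate 1 and 1.99 in replicate 2, against 1012.5 and 713 in WT.
Scaled by depth, Itga5 stood at 0.601% of its WT level in CBE-/- (1) (95% interval 0.274 to 1.14%), 0.146% in CBE-/- (2) (0.0177 to 0.528%) and 0.148% in Eµ-/- (0.0179 to 0.534%), intervals that cover counting error only. The floor of 3 reads was worth 0.0129 FPKM in CBE-/- (2) replicate 1 and 0.0121 FPKM in Eµ-/- replicate 1, the libraries listed at 0. On the log2(FPKM + 1) scale, which understates the change of a gene this low, the differences from WT were -1.92 in CBE-/- (1) (adjusted p = 1.97e-05), -1.94 in CBE-/- (2) (1.56e-05) and -1.94 in Eµ-/- (1.85e-05). Among the mutant lines the differences were -0.02 for CBE-/- (2) against CBE-/- (1) (95% interval -0.22 to 0.18, adjusted p = 0.932), -0.02 for Eµ-/- against CBE-/- (1) (-0.22 to 0.18, adjusted p = 0.926) and 0.00045 for Eµ-/- against CBE-/- (2) (-0.20 to 0.20, adjusted p = 0.999). With levels of 0.0226 FPKM at most and a pseudocount of 1, these differences had to lie near 0. They do not show that the mutant lines are alike.

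The gene start regions of Itga5, its partner chain Itgb1 and the subunit Itga4, which rose in CBE-/- (1) and Eµ-/-, are shown because these genes encode chains of related integrins with different patterns over the same libraries. Each line is the 250 bases before the RefSeq start on GRCm38.p6, given on the gene's own strand, with capitals marking GGGCGG or its reverse complement CCGCCC.
Itga5, chr15:103366792-103367041, minus strand: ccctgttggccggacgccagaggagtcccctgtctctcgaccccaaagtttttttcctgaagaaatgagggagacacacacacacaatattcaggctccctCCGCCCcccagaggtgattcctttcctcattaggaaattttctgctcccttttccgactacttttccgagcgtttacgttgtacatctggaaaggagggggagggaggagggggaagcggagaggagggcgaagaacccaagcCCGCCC
Itgb1, chr8:128685404-128685653, plus strand: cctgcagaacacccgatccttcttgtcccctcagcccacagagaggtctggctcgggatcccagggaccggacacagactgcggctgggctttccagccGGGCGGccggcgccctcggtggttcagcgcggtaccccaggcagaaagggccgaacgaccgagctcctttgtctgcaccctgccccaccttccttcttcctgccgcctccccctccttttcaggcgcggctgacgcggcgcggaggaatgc
Itga4, chr2:79255176-79255425, plus strand: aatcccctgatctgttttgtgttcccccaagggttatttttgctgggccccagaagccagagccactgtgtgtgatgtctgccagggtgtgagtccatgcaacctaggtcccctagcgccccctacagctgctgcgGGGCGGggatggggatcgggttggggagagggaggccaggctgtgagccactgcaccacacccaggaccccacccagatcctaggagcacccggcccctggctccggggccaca
The Itga5 window held GGGCGG on the reverse strand at 149 and 6 bases before the start, and 11 CpG. The Itgb1 window held it once at 151 bases, with 21 CpG, and the Itga4 window once at 114 bases, with 6 CpG, the median of all windows. Over 32851 such windows of RefSeq genes, 32.7% held that motif on either strand. None of these 3 windows held the TATA motif TATAAA, found on either strand in 12.4% of all windows. The motif CCAAT, in 33.9% of all windows, was not found in them. The ETS-type motif GGAAGT, in 19.7% of all, was not found either. No motif of the 4 lies within another. RefSeq windows were matched for 5 of the 9 genes, and those of Cd44 and Itgb7 held none of the 4 motifs and had 5 CpG each. The ends of the Itgb1, Itga4, Cd44 and Itgb7 windows are flagged as lying within a transcript, and that of the Itga5 window is not.

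The tested genes nearest Itga5 on each side on chromosome 15 were Hnrnpa1, Copz1 and Zfp385a at lower coordinates and Nckap1l and Pde1b at higher ones. All were at 4.63 FPKM or more in every library, and none was called in CBE-/- (1) or Eµ-/-. In CBE-/- (2), Zfp385a (log2 difference -1.18, adjusted p = 0.0152), the closest at 28.5 kb between midpoints, Hnrnpa1 (-0.65, adjusted p = 0.0251) and Nckap1l (-0.41, adjusted p = 0.0159) fell. Zfp385a stood at 8.31 and 14.6 FPKM in CBE-/- (1), 5.95 and 5.90 in CBE-/- (2), 12.8 and 14.7 in Eµ-/- and 16.3 and 13.3 in WT.

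Itga4 (α4, mm9 chr2:79095583-79173271), the chain shared by α4β1 and α4β7, was higher in the mutant lines than in WT. It stood at 20.1 and 14.9 FPKM in CBE-/- (1), 11.5 and 10.9 in CBE-/- (2), 13.4 and 13.9 in Eµ-/- and 7.995 and 6.98 in WT. All 6 mutant libraries exceeded both WT libraries, and both CBE-/- (1) libraries exceeded the other 4 mutant libraries. The means were 17.5 ± 3.72 FPKM in CBE-/- (1), 11.2 ± 0.444 in CBE-/- (2), 13.6 ± 0.390 in Eµ-/- and 7.49 ± 0.720 in WT (SD, n = 2 each). Against WT the log2 difference was 1.11 in CBE-/- (1) (SE 0.15, adjusted p = 0.00296) and 0.79 in Eµ-/- (SE 0.15, adjusted p = 0.0125), both past the threshold. In CBE-/- (2) it was 0.53 (SE 0.15, adjusted p = 0.0543), short of it, but past it in a fit with a replicate block (0.0226).
The CBE-/- (1) call held in all 17 alternatives. The Eµ-/- call was lost on leaving out WT replicate 1 (adjusted p = 0.0514), WT replicate 2 (0.0985) or Eµ-/- replicate 2 (0.0542), within a range of 0.00506 to 0.0985 over its alternatives. For CBE-/- (2) the adjusted p ranged from 0.0147 to 0.278 and passed without CBE-/- (1) replicate 1 (0.0189) or 2 (0.0189), with a pseudocount of 0.1 (0.0491) and in a fit on the libraries compared (0.0147). Between mutant lines no Itga4 difference passed the threshold; that of CBE-/- (2) from CBE-/- (1) was -0.59, 95% interval -0.94 to -0.23, adjusted p = 0.0575, and without CBE-/- (1) replicate 2 it was -0.79 and past the threshold (adjusted p = 0.0203, range over the alternatives 0.0203 to 0.299). The Itga4 difference of CBE-/- (2) from CBE-/- (1) also passed in the limma fit with a replicate block (adjusted p = 0.0242). In the mm9 coordinates of the files Itga4 overlaps Cerkl by 624 bases, and Cerkl was at 1.19 FPKM at most. Because the sources used here do not give how counting used strand, reads in the overlap cannot be assigned to either gene.

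Itga6 (α6, mm9 chr2:71624996-71696484), the laminin-binding α chain, had the highest level of the 4 α chain genes in every library. It was found at 41.5 and 53.9 FPKM in CBE-/- (1), 34.5 and 38.7 in CBE-/- (2), 17.8 and 23.9 in Eµ-/- and 28.6 and 26.05 in WT. Both CBE-/- (1) libraries were the highest and both Eµ-/- libraries the lowest, and no lines overlapped. The means were 47.7 ± 8.74 FPKM in CBE-/- (1), 36.6 ± 2.95 in CBE-/- (2), 20.9 ± 4.32 in Eµ-/- and 27.3 ± 1.80 in WT (SD, n = 2 each). In CBE-/- (1) it rose by 0.77 over WT on the log2 scale (SE 0.18, adjusted p = 0.0263), a call lost without WT replicate 1 (0.0968), WT replicate 2 (0.163), CBE-/- (1) replicate 2 (0.0987), CBE-/- (2) replicate 1 (0.0567) or CBE-/- (2) replicate 2 (0.0567). Over its 17 alternatives this adjusted p ranged from 0.00911 to 0.163.
Neither CBE-/- (2) (0.41, 95% interval -0.02 to 0.83, adjusted p = 0.171) nor Eµ-/- (-0.39, 95% interval -0.81 to 0.04, adjusted p = 0.172) differed from WT past the threshold, although CBE-/- (2) did in a fit on the libraries compared (0.0285). The widest Itga6 differences were between mutant lines. Eµ-/- was lower than CBE-/- (1) by a log2 difference of -1.16 (SE 0.18, adjusted p = 0.00879), which held in each of the 8 leave-outs and was lost in 1 of the 17 alternatives, a fit on the libraries compared alone (0.0793; range 0.00335 to 0.0793). It was lower than CBE-/- (2) by -0.79 (adjusted p = 0.0320), which was lost without WT replicate 1 (0.0691) or 2 (0.0689), CBE-/- (2) replicate 1 (0.123) or 2 (0.196), or Eµ-/- replicate 1 (0.0641), with no filter (0.0556) and in a fit on the libraries compared (0.0785), and over its alternatives ranged from 0.0115 to 0.196.

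Itgb1 (β1, mm9 chr8:131209554-131257479), the common partner of α4, α5 and α6, had line means from 42.2 to 51.5 FPKM. Its 8 values were 41.4 and 45.7 FPKM in CBE-/- (1), 42.3 and 42.01 in CBE-/- (2), 44.9 and 41.9 in Eµ-/- and 50.8 and 52.2 in WT. Both WT libraries were the highest of the 8, and the mutant lines overlapped each other. The differences from WT were -0.24 in CBE-/- (1) (95% interval -0.45 to -0.02, adjusted p = 0.118), -0.28 in CBE-/- (2) (-0.50 to -0.07, adjusted p = 0.0759) and -0.24 in Eµ-/- (-0.46 to -0.03, adjusted p = 0.101). None passed the threshold, although that of CBE-/- (2) did without the filter (0.0420), with a replicate block (0.0476) or in a fit on the libraries compared (0.0242). It passed in no other alternative.

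Set beside the α4, α5 and α6 genes, β1 RNA was below their sum in the CBE lines and above it in the Eµ-/- and WT lines. Other α chain genes, such as Itgav at 1.88 to 2.41 FPKM, were left out of this sum. Itgb1 over the summed FPKM of Itga4, Itga5 and Itga6 was 0.672 and 0.664 in CBE-/- (1), 0.919 and 0.847 in CBE-/- (2), 1.44 and 1.11 in Eµ-/- and 1.29 and 1.45 in WT. The CBE lines did not overlap WT, whereas the Eµ-/- and WT libraries did overlap. Itga6 made up 67.3 and 78.4% of that sum in CBE-/- (1), 75.0 and 78.0% in CBE-/- (2), 57.2 and 63.2% in Eµ-/- and 72.8 and 72.3% in WT. Itga5 made up at most 0.0328% in the mutant libraries, against 6.90 and 8.28% in WT. No test was run on these ratios, which describe the libraries, and RNA ratios are not ratios of protein pairs.

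**Figure D3:**
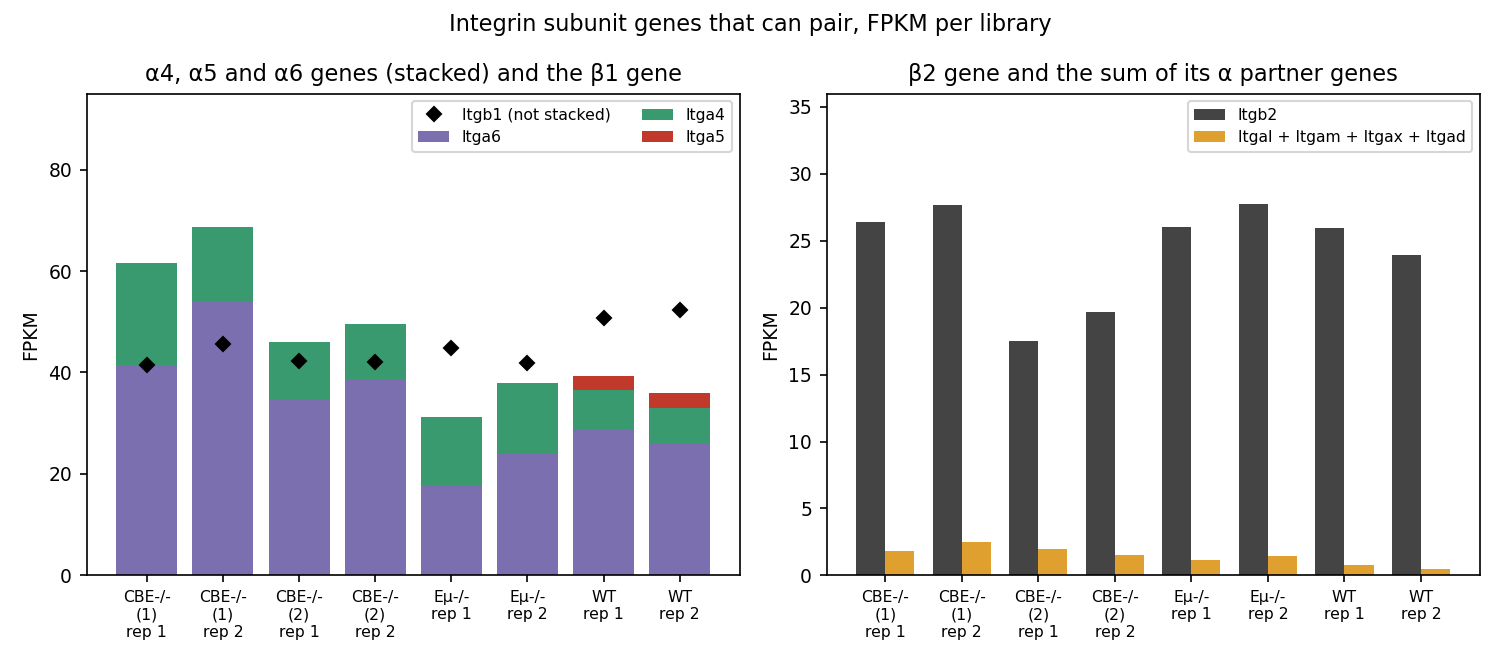
FPKM per library of the α4, α5 and α6 genes stacked with Itgb1 as a diamond on the left, and of Itgb2 beside the sum of Itgal, Itgam, Itgax and Itgad on the right. The α5 layer is visible only in WT, and Itgb1 lies below the top of the stack in the 4 CBE libraries and above it in the other 4.

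Itgb2 (β2, mm9 chr10:76993093-77028419), the leukocyte integrin β chain, was lower in CBE-/- (2) than in the other lines. It was measured at 26.4 and 27.7 FPKM in CBE-/- (1), 17.5 and 19.7 in CBE-/- (2), 26.01 and 27.8 in Eµ-/- and 25.96 and 23.95 in WT. Both CBE-/- (2) libraries lie below the other 6, which overlap each other. The difference of CBE-/- (2) was -0.41 from WT (SE 0.10, adjusted p = 0.0321) and -0.52 from CBE-/- (1) (adjusted p = 0.0211), and Eµ-/- exceeded CBE-/- (2) by 0.51 (adjusted p = 0.0191). CBE-/- (1) (0.11, 95% interval -0.12 to 0.35, adjusted p = 0.487) and Eµ-/- (0.10, 95% interval -0.13 to 0.34, adjusted p = 0.491) did not differ from WT past the threshold.
Each of the 3 calls was lost without certain single libraries. That against WT was lost without WT replicate 1 (0.208) or 2 (0.112) or CBE-/- (2) replicate 1 (0.220) or 2 (0.0890), that against CBE-/- (1) without any library of WT, CBE-/- (1) or CBE-/- (2) (0.0542 to 0.174), and that of Eµ-/- without CBE-/- (2) replicate 1 (0.160) or 2 (0.0741) or Eµ-/- replicate 2 (0.0651). In a fit on the libraries compared, those against CBE-/- (1) (0.0616) and of Eµ-/- against CBE-/- (2) (0.0846) were lost too. Over their alternatives these adjusted p ranged from 0.0189 to 0.220, 0.0128 to 0.174 and 0.0116 to 0.160. Myeloid markers, whose cells express Itgb2 strongly, summed to 5.34 to 11.98 FPKM in CBE-/- (1), 3.08 to 3.58 in CBE-/- (2), 4.17 to 5.07 in Eµ-/- and 4.88 to 9.20 in WT, with Elane at 0 throughout, and their part in the result was not tested. The highest single marker was Lyz2, at up to 7.19 FPKM. Itgam, also among these markers, went the other way, at 1.66 and 1.17 FPKM in CBE-/- (2) against 0.293 and 0.120 in WT. In such bulk libraries fewer cells of a type and less RNA per cell cannot be told apart.

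The α partners of β2 were scarce. Itgal (αL, mm9 chr7:134439774-134478651) was listed at 0.0976 and 1.21 FPKM in CBE-/- (1), 0.0638 and 0.127 in CBE-/- (2), 0.575 and 0.782 in Eµ-/- and 0.288 and 0.217 in WT. The libraries of CBE-/- (1) differed 12.4-fold, and their range overlapped that of every other line. Itgb2 was at 14.8 and 11.1 times the sum of Itgal, Itgam, Itgax and Itgad in CBE-/- (1), 9.02 and 13.1 times in CBE-/- (2), 22.5 and 19.0 times in Eµ-/- and 32.4 and 51.0 times in WT. Both WT ratios lie above all 6 mutant ratios, but no test was run, and the sum was only 0.469 to 2.50 FPKM. It includes Itgam, which was at 0.293 and 0.120 FPKM in WT and above 1 FPKM in both CBE lines. Over Itgal alone the ratios were 270 and 22.9 in CBE-/- (1) and 275 and 155 in CBE-/- (2). The Eµ-/- ratios over Itgal were 45.2 and 35.5 and those of WT 90.2 and 110. By that measure both CBE-/- (2) ratios lie above both WT ratios.

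Itgb7 (β7, mm9 chr15:102046426-102062366), the other partner of α4, was low too. Its RNA was at 0.429 and 1.63 FPKM in CBE-/- (1), 0.360 and 0.384 in CBE-/- (2), 0.129 and 0.243 in Eµ-/- and 0.321 and 0.315 in WT. CBE-/- (1) replicate 2, 3.81 times its replicate 1, stands above all other libraries, and it is also the library with the highest Itgal. In a fit without the filter neither Itgal nor Itgb7 was called against WT in any line; for Itgb7 in CBE-/- (1) the difference was 0.56, adjusted p = 0.262, and for Itgal in Eµ-/- it was 0.42, adjusted p = 0.444.

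Cd44 (mm9 chr2:102651300-102741822), the hyaluronan receptor, was below 1 FPKM in every library. It was listed at 0.00630 and 0.0447 FPKM in CBE-/- (1), 0.0719 and 0.0934 in CBE-/- (2), 0.615 and 0.0294 in Eµ-/- and 0.918 and 0.976 in WT. Both WT libraries were the highest and both CBE lines had 0.0934 FPKM at most, while the Eµ-/- libraries differed 20.9-fold from each other. In the fit without the filter the differences from WT were -0.93 in CBE-/- (1) (adjusted p = 0.0353), -0.85 in CBE-/- (2) (0.0432) and -0.59 in Eµ-/- (0.112). These no-filter values are an alternative and not calls of the main test.

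Cd97 (mm9 chr8:86247150-86265210), the adhesion G protein-coupled receptor, was higher in every mutant library than in both WT libraries. It was listed at 19.9 and 18.3 FPKM in CBE-/- (1), 3.06 and 2.91 in CBE-/- (2), 11.6 and 16.8 in Eµ-/- and 0.470 and 0.351 in WT. No lines overlapped, with CBE-/- (1) highest, then Eµ-/-, CBE-/- (2) and WT. The means were 19.1 ± 1.10 FPKM in CBE-/- (1), 2.99 ± 0.111 in CBE-/- (2), 14.2 ± 3.64 in Eµ-/- and 0.411 ± 0.0842 in WT (SD, n = 2 each). Against WT the log2 difference was 3.83 in CBE-/- (1) (SE 0.17, adjusted p = 2.04e-05), 1.50 in CBE-/- (2) (SE 0.17, adjusted p = 0.00110) and 3.41 in Eµ-/- (SE 0.17, adjusted p = 3.18e-05). All 3 calls held in all 17 alternatives. Only the 6 mutant libraries reached 1 FPKM, so that Cd97 entered the test through the mutant lines alone.
The mutant lines also differed from each other. CBE-/- (2) was lower than CBE-/- (1) by a log2 difference of -2.33 (adjusted p = 0.000342), and Eµ-/- was higher than CBE-/- (2) by 1.91 (adjusted p = 0.000544), both in all 17 alternatives. Eµ-/- against CBE-/- (1) was -0.42, 95% interval -0.82 to -0.03, adjusted p = 0.195, not past the threshold, but past it without Eµ-/- replicate 2 (-0.67, adjusted p = 0.0251, range over the alternatives 0.0251 to 0.514).

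Of the genes next to Cd97, Ddx39, which overlaps it by 101 bases, averaged 161 FPKM in CBE-/- (1), 162 in CBE-/- (2), 133 in Eµ-/- and 132 in WT and was not called. Mir1668 also overlaps Cd97, by 107 bases, at 0 to 16.3 FPKM. Reads in these overlaps cannot be assigned to either gene, since how counting used strand is not given. The WT values of Cd97 rested on 113 and 50.4 implied reads, and the share of overlap reads in them was not tested. Of 6 neighbours, Lphn1 (1.02, adjusted p = 0.0322) and Asf1b (0.46, adjusted p = 0.0183) rose in CBE-/- (2) and Asf1b (0.52, adjusted p = 0.0120) in Eµ-/-, and none was called in CBE-/- (1). CD55, the ligand of CD97, is encoded by Cd55, which was listed at 6.31 and 5.48 FPKM in CBE-/- (1), 5.06 and 5.63 in CBE-/- (2), 4.42 and 7.63 in Eµ-/- and 3.36 and 3.65 in WT and was not called against WT in any mutant line.

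Among the genes tested, with unnamed transcript models left out, those whose log2 levels ran closest to Cd97 over the 8 libraries were Map7d1 (r = 0.996), Zfp704 (0.990) and Fmnl1 (0.989). Closest to Itga5 were Hoxb3 (r = 0.9999), Ifi44l (0.9997) and Fam3b (0.9995), and closest to Itga6 were Rdm1 (0.987), Ublcp1 (0.978) and Pglyrp2 (0.975). These are descriptions over 8 libraries, which share a line in pairs, and for Itga5, near 0 in 6 of them, r rests on the 2 WT libraries. Among the members, Itga4 ran closest to Cd97 (r = 0.94) and Itga5 to Itgb1 (r = 0.92), where each value rests on 4 lines.

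The wider adhesion machinery was read from 6 lists of other genes, in which Cd55 stands in 2. Over all genes tested, 10.9% rose and 8.54% fell in CBE-/- (1), 10.5 and 8.19% in CBE-/- (2) and 11.3 and 10.4% in Eµ-/-, the shares beside which the counts of each list stand. Of the 70 list genes tested, 9 reached 1 FPKM in some of the lines only and so passed the filter through the lines where they were higher: Tln2 in WT, Itga9 in CBE-/- (2), Mmp14 in Eµ-/-, Itgam and Ptk2 in both CBE lines, Skap1 and Actn1 in CBE-/- (2) and Eµ-/-, and Itgb3 and Ank3 in CBE-/- (2) and WT. The list counts, which hold 8 of these 9 as called genes, are therefore descriptions.

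Of 19 other integrin subunit genes 4 were tested, and 1 rose and 1 fell in CBE-/- (1), 2 rose in CBE-/- (2) and 1 fell in Eµ-/-. Itgam (αM, a β2 partner) rose in CBE-/- (1) (1.01, adjusted p = 0.00390) and CBE-/- (2) (1.00, adjusted p = 0.00403), at 1.65 and 1.22 FPKM in CBE-/- (1), 1.66 and 1.17 in CBE-/- (2), 0.570 and 0.616 in Eµ-/- and 0.293 and 0.120 in WT. Itgb3 (β3) fell in CBE-/- (1) (-1.01, adjusted p = 0.00163), at 0.0974 and 0.121 FPKM in CBE-/- (1), 2.11 and 1.53 in CBE-/- (2), 0.370 and 0.463 in Eµ-/- and 1.30 and 1.17 in WT. Itga9 (α9) rose in CBE-/- (2) (0.80, adjusted p = 0.00174), having reached 1 FPKM in that line alone. These 4 calls held in all 8 leave-outs, unlike that of Itgb3 in Eµ-/-. Itgam is also a myeloid gene and is itself counted in the myeloid marker sums given above. The part of myeloid cells in its level was not tested. The list medians were 0.07, 0.56 and -0.01, against 0.02, 0.04 and 0.01 for all genes, in CBE-/- (1), CBE-/- (2) and Eµ-/-.

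Of 22 other leukocyte adhesion receptors 13 were tested, and 2 rose in CBE-/- (1), 3 fell in CBE-/- (2) and 1 rose in Eµ-/-. Cd47, which binds SIRPα, rose in CBE-/- (1) (0.71, adjusted p = 0.00384) and Eµ-/- (0.74, adjusted p = 0.00346), at 99.8 and 101 FPKM in CBE-/- (1), 68.95 and 73.7 in CBE-/- (2), 96.5 and 108 in Eµ-/- and 64.3 and 57.5 in WT. Cd48, a receptor of the CD2 family that binds CD2 in the mouse, fell in CBE-/- (2) (-1.57, adjusted p = 0.000721), at 63.3 and 59.9 FPKM in CBE-/- (1), 25.99 and 23.00 in CBE-/- (2), 78.4 and 56.8 in Eµ-/- and 76.1 and 72.7 in WT. The calls of Cd2 in CBE-/- (1) and Pecam1 in CBE-/- (2) were lost in at least 1 leave-out. The list medians were -0.06 in CBE-/- (1), -0.31 in CBE-/- (2) and 0.22 in Eµ-/-.

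Of 18 ligand genes 6 were tested. RNA of VCAM-1 and fibronectin, the α4β1 ligands named above, was near absent, with Vcam1 listed at 0 in all 8 libraries and Fn1 at 0.00301 FPKM at most. Spp1 (osteopontin, a ligand of several integrins) fell in all 3 mutant lines (-2.78, adjusted p = 0.000704 in CBE-/- (1), -4.27, adjusted p = 8.75e-05 in CBE-/- (2) and -3.90, adjusted p = 0.000159 in Eµ-/-), at 27.1 and 20.6 FPKM in CBE-/- (1), 7.61 and 7.95 in CBE-/- (2), 13.3 and 7.94 in Eµ-/- and 139 and 204 in WT. Both WT libraries exceeded all mutant libraries. Srgn, the serglycin gene, fell in CBE-/- (2) (-0.67, adjusted p = 0.00225). Icam1 (an αLβ2 ligand) and Hmmr (a hyaluronan-binding protein) rose in CBE-/- (1) and Eµ-/-, and these calls were lost in at least 1 leave-out. The list medians were 0.26, 0.06 and 0.44 in CBE-/- (1), CBE-/- (2) and Eµ-/-.

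Of 25 genes of integrin activation and tail binding 24 were matched and 17 tested, with 2 higher and 1 lower in CBE-/- (1), 1 and 2 in CBE-/- (2), and 3 and 2 in Eµ-/-. The higher genes were 11.8, 5.88 and 17.6% of those tested and the lower 5.88, 11.8 and 11.8%, to be read beside the shares of all genes given above. Tln2 (talin-2, which binds β tails) fell in all 3 mutant lines (-1.44, adjusted p = 6.88e-05 in CBE-/- (1), -1.37, adjusted p = 6.96e-05 in CBE-/- (2) and -1.03, adjusted p = 0.000294 in Eµ-/-), at 0.0566 and 0.0787 FPKM in CBE-/- (1), 0.0910 and 0.141 in CBE-/- (2), 0.445 and 0.378 in Eµ-/- and 1.90 and 1.87 in WT. Only WT reached 1 FPKM, so that the gene entered the test through WT alone. Rasgrp2, an activator of Rap1, rose in CBE-/- (1) (0.80, adjusted p = 0.00483) and Eµ-/- (0.61, adjusted p = 0.0145), the second call being lost without WT replicate 2 (0.108) or Eµ-/- replicate 2 (0.0564). Fermt3 (kindlin-3) fell in CBE-/- (2) (-0.67, adjusted p = 0.00446) and Eµ-/- (-0.55, adjusted p = 0.0103), the second call being lost without WT replicate 1 (0.0834) or 2 (0.0679). Skap1, an adaptor of αLβ2 activation in T cells, rose in CBE-/- (2) (1.05, adjusted p = 0.0171) and Eµ-/- (1.86, adjusted p = 0.00162). The list medians were 0.11, -0.01 and 0.07 in CBE-/- (1), CBE-/- (2) and Eµ-/-.

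Of 24 focal adhesion genes 18 were tested, with 3 higher in CBE-/- (1), 3 higher in CBE-/- (2), and 3 higher and 2 lower in Eµ-/-. The higher genes were 16.7% of those tested in each line, beside 10.9, 10.5 and 11.3% of all genes. Ptk2 (focal adhesion kinase) rose in CBE-/- (1) (0.94, adjusted p = 0.00228) and CBE-/- (2) (2.54, adjusted p = 2.25e-05), at 0.872 and 1.04 FPKM in CBE-/- (1), 4.35 and 5.56 in CBE-/- (2), 0.00494 and 0.0156 in Eµ-/- and 0.0236 and 0.0164 in WT. It was near 0 in the Eµ-/- and WT libraries. Nedd9, a docking protein of that kinase, rose in CBE-/- (2) (0.62, adjusted p = 0.00946) and fell in Eµ-/- (-0.81, adjusted p = 0.00333). The list medians were 0.24, 0.26 and 0.25, with 0.02, 0.04 and 0.01 for all genes.

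Of 16 partners of CD44 and CD97, 13 were tested, with 4 higher and 1 lower in each CBE-/- line and 3 higher and 3 lower in Eµ-/-. Ank3 (ankyrin-G, which links CD44 to the spectrin skeleton) fell in CBE-/- (1) (-1.16, adjusted p = 0.000608) and Eµ-/- (-1.29, adjusted p = 0.000379), at 0.105 and 0.0951 FPKM in CBE-/- (1), 1.92 and 1.45 in CBE-/- (2), 0 in both libraries of Eµ-/- and 1.55 and 1.36 in WT. Gna12 (Gα12) rose in all 3 mutant lines (1.37, adjusted p = 0.00482 in CBE-/- (1), 1.23, adjusted p = 0.00740 in CBE-/- (2) and 1.18, adjusted p = 0.00917 in Eµ-/-), the Eµ-/- call being lost without WT replicate 2 (0.0569). Mmp14, a protease that cuts CD44, also rose in all 3 (0.62, adjusted p = 0.00396 in CBE-/- (1), 0.83, adjusted p = 0.000956 in CBE-/- (2) and 1.22, adjusted p = 0.000195 in Eµ-/-), at 0.559 and 0.588 FPKM in CBE-/- (1), 0.906 and 0.745 in CBE-/- (2), 1.33 and 1.46 in Eµ-/- and 0.0230 and 0.0289 in WT. It entered the test through Eµ-/- alone, and its calls in both CBE lines were lost after quantile normalization. The list medians were 0.36, 0.32 and 0.37. By the rule of up to 3 called genes a list, 16, 16 and 14 genes were named in CBE-/- (1), CBE-/- (2) and Eµ-/-, and 9, 10 and 7 of these calls held in all 8 leave-outs. In CBE-/- (1), those of Cd2, Icam1, Hmmr, Cyth1, Vasp, Ilk and Msn did not. Nor did those of Pecam1, Skap1, Vcl, Nedd9, Cd74 and Gna12 in CBE-/- (2). Calls of Itgb3, Icam1, Hmmr, Cyth1, Git2, Ptk2b and Cd74 in Eµ-/- did not hold either. Each was lost without at least 1 WT library, except Gna12 in CBE-/- (2), lost without CBE-/- (2) replicate 1 or 2.

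**Figure D4:**
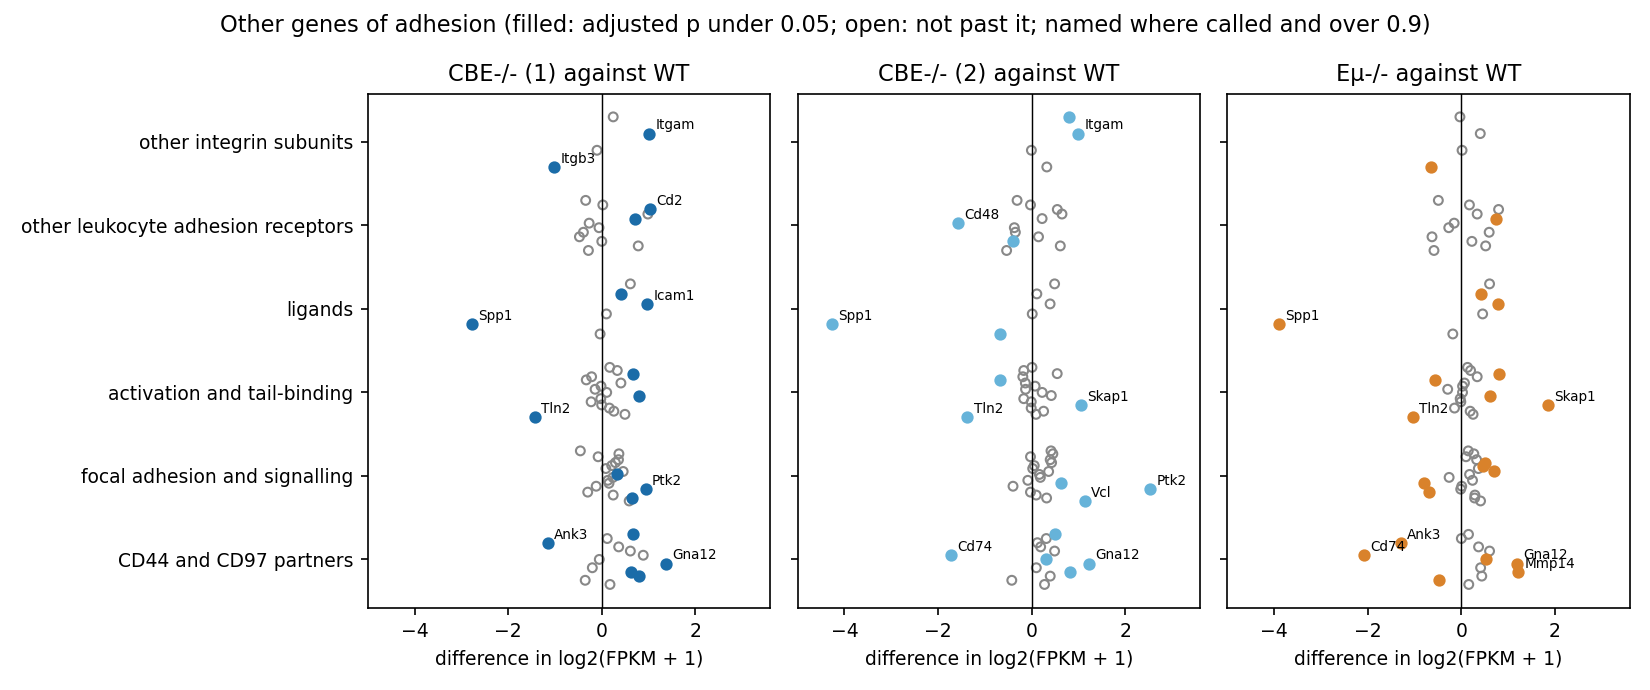
Differences in log2(FPKM + 1) from WT for the tested genes of 6 adhesion lists, by mutant line, in panels from left to right. Filled points passed an adjusted p of 0.05, and called genes with a difference over 0.9 in size are named, with 1 tested gene not drawn. Spp1 has the lowest difference in each panel and Ptk2 the highest in CBE-/- (2).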

How the data were processed

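RNA of 4 pro-B cell lines was sequenced as 2 stranded mRNA libraries each, as 75 bp single reads, per the labels' protocols. The deposited values are FPKM with an interval and a status per gene, per the file headers. TopHat, Cufflinks and mm9 are named in the submitters' processing notes. Their versions, settings and strand handling are not given in the sources used. FPKM of symbols at several loci (277) were summed, and 21 symbols with a failed status were left out. Depth was estimated from reads implied by the deposited intervals.

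Genes with 1 FPKM or more in at least 2 of 8 libraries (10479) were tested on log2(FPKM + 1), a pseudocount of 1, with limma 3.58.1 in R 4.3.3, fitted to all 8 libraries with an intensity trend and having 4 residual plus 2.65 prior degrees of freedom. For each of 6 comparisons of lines, p was adjusted by Benjamini-Hochberg over all genes tested and called below 0.05. The fit was checked on simulated data.

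Members and lists were chosen with earlier results of these data known. All 9 members are named, with up to 3 called genes of the largest difference per list and comparison with WT. The 3 genes most alike each of the 3 members of widest range are named too, with unnamed transcript models left out. A gene that this rule takes is not reported here, though it stays in the counts. Neighbours of Itga5 and Cd97, Cd55, Vcam1 and Fn1 were chosen after their values were seen. Tried as alternatives were a pseudocount of 0.1 or 5, dropping the filter, a filter on the mean (5 FPKM), median-of-ratios and quantile scaling, no trend, a fit on the libraries compared, a replicate block and each library left out, where a line left with 1 library is assumed to vary like the others. Promoter windows come from RefSeq on GRCm38.p6 and member coordinates from the files on mm9.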

Additional observations from a re-analysis of the deposited data

Results flagged for a closer look

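The changes of 2 genes against WT differed between the CBE lines, which carry the same labelled genotype, by the limma contrast of the lines themselves. For Cd97 the change in CBE-/- (2) minus that in CBE-/- (1) was -2.33 on the log2 scale (limma adjusted p = 0.000342), with both CBE-/- (2) libraries below both CBE-/- (1) libraries. For Itgb2 it was -0.52 (limma adjusted p = 0.0211), again with both CBE-/- (2) libraries below both CBE-/- (1) libraries, and this call was lost when any single library of WT, CBE-/- (1) or CBE-/- (2) was left out. Groups of 2 libraries are too small to look for a single outlying library.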

How the results depend on the processing

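Of 36 differences (6 tested genes in 6 comparisons), 16 were called, and 9 of these were called in every alternative run: Cd97 in the 3 comparisons with WT and in both of CBE-/- (2) with another mutant line, Itga5 in the 3 with WT, and Itga4 in CBE-/- (1) against WT. Itga5 lies below a mean of 5 FPKM and has no value under that filter. Of 20 differences not called, 5 were called in some alternative. No scaling moved the median of all genes by over 0.1.

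In the order CBE-/- (1), CBE-/- (2) and Eµ-/- against WT, CBE-/- (2) and Eµ-/- against CBE-/- (1), and Eµ-/- against CBE-/- (2), the genes called were 2033, 1960, 2284, 1069, 1051 and 1387. With a mean of 5 FPKM or more, where fewer genes were tested, they were 1056, 1023, 1304, 369, 407 and 567. With only the libraries compared, the counts moved beyond 1.5 times to 3527 for CBE-/- (2) and 1255 for Eµ-/- against WT, 405 for Eµ-/- against CBE-/- (1) and 787 for Eµ-/- against CBE-/- (2). The main fit gives all lines a common spread. Between the libraries of a line, the median absolute log2 difference was 0.0942 in WT, 0.105 in CBE-/- (2), 0.176 in CBE-/- (1) and 0.222 in Eµ-/-. The cause of the moved counts was not tested. Leaving out 1 library gave 903 to 2608, 950 to 2546, 890 to 3317, 375 to 1373, 733 to 1659 and 538 to 2430. The libraries that moved the comparisons of mutant lines by over 1.5 times were, for CBE-/- (2) against CBE-/- (1), WT replicate 1 or 2 (705 each), CBE-/- (1) replicate 1 (656) and CBE-/- (2) replicate 1 (424) or 2 (375); for Eµ-/- against CBE-/- (1), Eµ-/- replicate 1 (1659); and for Eµ-/- against CBE-/- (2), WT replicate 1 or 2 (904 each), CBE-/- (2) replicate 1 (550) or 2 (538) and Eµ-/- replicate 1 (2430).

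Members called in CBE-/- (2) against WT were 3 of 6 tested, and 5 of 9 with no filter, where 17.0% of 16290 genes were called, and 6 of 6 with only the libraries compared, where 33.7% of all genes were. In CBE-/- (2) against CBE-/- (1) they were 2, and 1 with only the libraries compared (7.16% of all genes). In Eµ-/- against CBE-/- (1) limma called 1, and 0 with only the libraries compared (3.86% of all genes), where 1 had an unadjusted p under 0.05. In Eµ-/- against CBE-/- (2) they were 3, and 1 with only the libraries compared (7.51%). Leave-outs gave 3 to 4, 2 to 4, 2 to 3, 1 to 2, 1 to 2 and 1 to 3 members in the 6 comparisons, with 1 in CBE-/- (2) against CBE-/- (1) without WT replicate 1 or 2, CBE-/- (1) replicate 1 or CBE-/- (2) replicate 1 or 2, 2 in Eµ-/- against CBE-/- (1) without Eµ-/- replicate 2, and 1 in Eµ-/- against CBE-/- (2) without CBE-/- (2) replicate 1 or 2.

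A replicate block gave 3142, 3013, 3563, 1736, 1780 and 2445 genes called, and 5 members in CBE-/- (2) against WT. Under it 3 differences of members passed that did not without it: Itga4 in CBE-/- (2) against WT (adjusted p = 0.0226) and against CBE-/- (1) (0.0242), and Itgb1 in CBE-/- (2) against WT (0.0476). Deviations of same-numbered libraries of different lines correlated with r of 0.279 to 0.502, with 2 numbers a comparison and no shared batch named in the labels, so the numbers are not taken to pair the libraries.

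Of 606 differences of single members under alternatives, 554 kept direction and side, 12 passed the threshold, 31 no longer did and 9 changed sign, none of them called. In CBE-/- (2) against CBE-/- (1), Itgb1 ranged from -0.11 to 0.026 over the leave-outs, positive without CBE-/- (1) replicate 2. In Eµ-/- against CBE-/- (1), Itgb1 ranged from -0.073 to 0.066, positive without CBE-/- (1) replicate 2 (0.066) or Eµ-/- replicate 2 (0.044), and was 0.0042 after quantile normalization. There Itgb2 ranged from -0.054 to 0.037, positive without CBE-/- (1) replicate 2 (0.025) or Eµ-/- replicate 1 (0.037). In Eµ-/- against CBE-/- (2), Itga5 ranged from -0.0056 to 0.0066, negative without CBE-/- (2) replicate 1 (-0.0052) or Eµ-/- replicate 2 (-0.0056), and Itgb1 from -0.0075 to 0.088, negative without Eµ-/- replicate 1. Depth limits the values of Itga5, Cd44, Itgal and Itgb7 in the lines where they rest on few reads.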
